A study of Homo sapiens with 2 samples.

Results

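The regions described here are promoter peaks of open chromatin that were called in SUM159 cells carrying dCas9-KRAB and 4 guide RNAs against the ZEB1 promoter (All gRNA) and not in SUM159 cells carrying dCas9-KRAB and no targeting guide (No gRNA). They were selected on the peak calls themselves: a peak of the All gRNA list on chromosomes 1 to 22 and X was taken when it overlapped no No gRNA peak by even 1 bp and its summit, the position of highest signal, lay within 1000 bp of any transcript start in GENCODE release 44 (hg38). The rule found 1979 peaks among 68238 All gRNA peaks on these chromosomes. Of 20248 All gRNA promoter peaks, 9.77% were thus called in All gRNA only. The same rule with the lists exchanged found 3071 No gRNA only promoter peaks among 20754, or 14.8%.

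SUM159 is an established triple negative breast cancer line with claudin-low, mesenchymal features. Both populations carried the pLV-KRAB vector, which encodes the KRAB repressor domain joined to a Cas9 that cannot cut DNA, and the No gRNA cells received the empty guide vector. Each group was 1 ATAC-seq library, with no replicates, so no test between conditions was possible. The pileup, the number of read ends over a summit, was recovered from the deposited fold and p, and it put the depth of the All gRNA library at 0.743 times that of No gRNA. Intervals below are 95% intervals for counting error only, and peaks of 1 library are not replicates of a condition.

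In ATAC-seq the transposase Tn5 inserts adapters where DNA is not wrapped in nucleosomes, so active promoters appear as peaks. ZEB1 is a zinc finger and homeodomain transcription factor that binds E-boxes, above all CAGGTG, which reads as CACCTG on the other strand, and represses genes of epithelial adhesion and polarity during the epithelial to mesenchymal transition. Many promoters of broadly used genes lie in CpG islands and are open in most cells, whereas promoters of tissue-restricted genes are more often CpG-poor.

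The labelled cell type was checked first. All 6 claudin-low or mesenchymal markers (VIM, CD44, SPARC, FN1, CAV1 and AXL) had a promoter peak in both libraries. Among them CD44 also had an All gRNA only promoter peak and SPARC a No gRNA only one. Of 6 epithelial markers, CDH1, CLDN3 and KRT19 had none in either library, EPCAM had one in both, CLDN7 in All gRNA alone and CLDN4 in No gRNA alone. The leukocyte markers PTPRC and CD3E and the endothelial marker CDH5 had none, and PECAM1 had a peak in each. At ZEB1 itself there were 3 No gRNA promoter peaks, 2 of them without an All gRNA counterpart, and 1 All gRNA promoter peak, which was shared. The No gRNA only peak with its summit 8 bp from a ZEB1 start lay 34264 bp from the nearest All gRNA peak.

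Sequences of the E-box nearest the summit are shown for 4 epithelial genes and 3 of the strongest All gRNA only promoter peaks, because the share of peaks with this element, which the selection did not use, differed from that of the No gRNA counterparts also within the low CpG class. The 4 were the listed epithelial genes that held it. Of 16 All gRNA only promoter peaks at listed epithelial genes, 12 did not hold it, the strongest (LSR, GJB5, FGFBP1 and AP1M2) among them, and the interval of the share with it, 7.27% to 52.4%, included the 19.9% of all 1979 peaks. Each is hg38 sequence on the strand of the gene, with CAGGTG or CACCTG in capitals, and is cut to 30 bases where an annotated untranslated region overlaps. The windows are LAD1 at chr1:201397248-201397348 (minus strand), F11R at chr1:161021382-161021411 (minus), OCLN at chr5:69492645-69492674 (plus), MYO5B at chr18:50195243-50195343 (minus), ENSG00000275799 at chr21:44244087-44244187 (plus), LINC01888 at chr2:68832782-68832882 (plus) and MYLK at chr3:123623623-123623652 (minus).
LAD1: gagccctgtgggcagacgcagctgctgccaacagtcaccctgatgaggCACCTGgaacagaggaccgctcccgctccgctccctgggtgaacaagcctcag
F11R: tcagggggccgtCACCTGctgaaggtgcgg
OCLN: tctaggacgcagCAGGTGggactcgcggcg
MYO5B: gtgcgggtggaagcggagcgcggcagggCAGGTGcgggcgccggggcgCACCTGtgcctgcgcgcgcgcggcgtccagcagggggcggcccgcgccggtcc
ENSG00000275799: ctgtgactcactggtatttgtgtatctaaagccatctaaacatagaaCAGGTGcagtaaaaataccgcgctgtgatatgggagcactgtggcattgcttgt
LINC01888: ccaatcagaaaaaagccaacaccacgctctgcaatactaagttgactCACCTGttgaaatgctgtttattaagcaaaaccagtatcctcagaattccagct
MYLK: gaagatcaggctCAGGTGgcccagaactct
At LINC01888 the E-box lay at the summit (0 bp), at F11R 11 bp, at MYLK 17 bp, at OCLN 24 bp, at MYO5B 31 bp, at ENSG00000275799 39 bp and at LAD1 60 bp from it. The MYO5B peak held 3 such elements within 100 bp of its summit, 2 of them in the window shown. Among the 12 highest −log10 q values, LINC02320 and a Y RNA also held the element, 74 and 93 bp from the summit, and are not shown. LSR, CHTF18, GJB5, LINC02616, GJC1, FGFBP1 and TRAF3IP2-AS1, also among these 12, did not hold it.

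Within 100 bp of the summit, CAGGTG on either strand was present at 394 of the 1979 All gRNA only promoter peaks (19.9%, 18.2 to 21.7). It was present at 13.8% (12.6 to 15.0) of No gRNA only promoter peaks, at 12.6% (12.1 to 13.1) of All gRNA promoter peaks shared with No gRNA, and at 14.4% of 19625 canonical protein-coding starts. The difference from No gRNA only promoter peaks was 6.14 percentage points (4.02 to 8.30), and that from shared promoter peaks 7.30 points (5.53 to 9.18). Since shared peaks are stronger, 4357 weak shared peaks, with a −log10 q (the peak caller's significance) no higher than 9.62, the 90th percentile of All gRNA only promoter peaks, were also compared, and the difference was 6.48 points (4.49 to 8.55). At the 14232 All gRNA only peaks farther than 1000 bp from a start the share was 16.0% (15.4 to 16.6), 3.95 points (2.14 to 5.86) lower than at the promoters. Peaks beyond 1000 bp showed the same order, since those shared with No gRNA held it at 11.7% (11.3 to 12.0), so the higher share was not particular to promoters. In the intermediate CpG class the share was 20.7% at the promoters and 24.4% beyond 1000 bp, a difference of −3.70 points (−8.89 to 1.68).

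The E-box difference was present within CpG-poor sequence. In the low CpG class CAGGTG lay at 20.3% of All gRNA only and 12.9% of No gRNA only promoter peaks, a difference of 7.34 points (4.56 to 10.2). It was 5.49 points (0.966 to 10.3) in the intermediate class, and in the high class 3.66 points with an interval that included 0 (−0.909 to 8.67). Canonical protein-coding starts of the low class, open or not, held the element as often, at 20.3%. CAGGTG is also the sequence of many splice donors, where an exon ends in CAG and the intron begins with GTG. Without elements at annotated exon ends, an alternative chosen after seeing the data, the shares were 18.4% and 12.1%, which left a difference of 6.30 points (4.26 to 8.39). In the low class it was then 6.79 points (4.07 to 9.54) against No gRNA only promoter peaks and 1.02 points (−1.32 to 3.52) against canonical starts. In 4 equal groups of rising −log10 q the share was 20.7%, 18.4%, 18.9% and 21.6% in All gRNA only and 14.9%, 14.1%, 12.3% and 13.8% in No gRNA only promoter peaks, with no steady trend. At least 2 elements were present at 56 All gRNA only promoter peaks (2.83%) and at 34 No gRNA only ones (1.11%).

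The shares of the other E-boxes lay slightly below those of No gRNA only promoter peaks. CAGCTG, a palindrome like CACGTG, was found at 12.9% of All gRNA only and 13.2% of No gRNA only promoter peaks (−0.219 points, −2.10 to 1.71), against 14% of canonical starts. CACGTG was less frequent, at 3.44% against 4.66% (−1.22 points, −2.30 to −0.0885). Against All gRNA only peaks beyond 1000 bp both were more frequent, by 2.24 points (0.742 to 3.87) and 0.871 points (0.105 to 1.80). TGACTCA, the AP-1 element, lay at 15.6% against 11.5% (4.09 points, 2.15 to 6.07) and at 2.12% of canonical starts. Unlike CAGGTG, it was more common still at All gRNA only peaks away from starts, at 26.0%. Within the low CpG class its difference from No gRNA only promoter peaks was 3.23 points (0.155 to 6.33) and from weak shared ones 0.115 points (−2.98 to 3.25), while against all shared promoter peaks it was −6.88 points (−9.54 to −4.09). GGGCGG, the GC box bound by SP factors, was found at 22.3% against 29.9%, and at 54.0% of canonical starts. Within the low class it was at 7.75% and 7.80%, a difference of −0.0551 points (−2.05 to 1.99). CCGGAAG, an ETS element, was at 2.58% of All gRNA only and 9.89% of shared promoter peaks, and AACAGGTT, which holds CAGGT without the last G, at 0.808% and 0.345%. TATAAA was at 6.47% of All gRNA only promoter peaks, 3.54% of shared ones and 6.64% of canonical starts. No gRNA only promoter peaks held CCGGAAG at 3.06%, AACAGGTT at 0.423% and TATAAA at 5.44%. The differences from these were −0.484 points (−1.39 to 0.485), 0.385 points (−0.0461 to 0.916) and 1.03 points (−0.290 to 2.42).

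By CpG content the All gRNA only promoter peaks stood between ordinary promoters and distal elements. Over the 500 bp around the summit, high CpG sequence had a ratio of observed to expected CpG above 0.75 and over 55% GC, and low CpG sequence a ratio under 0.48. The high class held 16.9% (15.3 to 18.6) of All gRNA only promoter peaks, 24.4% (22.9 to 26.0) of No gRNA only ones, 34.8% of weak shared ones and 51.2% of all shared ones, but 0.302% of All gRNA only peaks beyond 1000 bp. The low class held 62.6% (60.4 to 64.7), against 49.7% of No gRNA only promoter peaks, a difference of 12.9 points (10.2 to 15.7). The median GC content was 51.6%, against 56.0% in No gRNA only and 63.4% in shared promoter peaks.

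**Figure D1:**
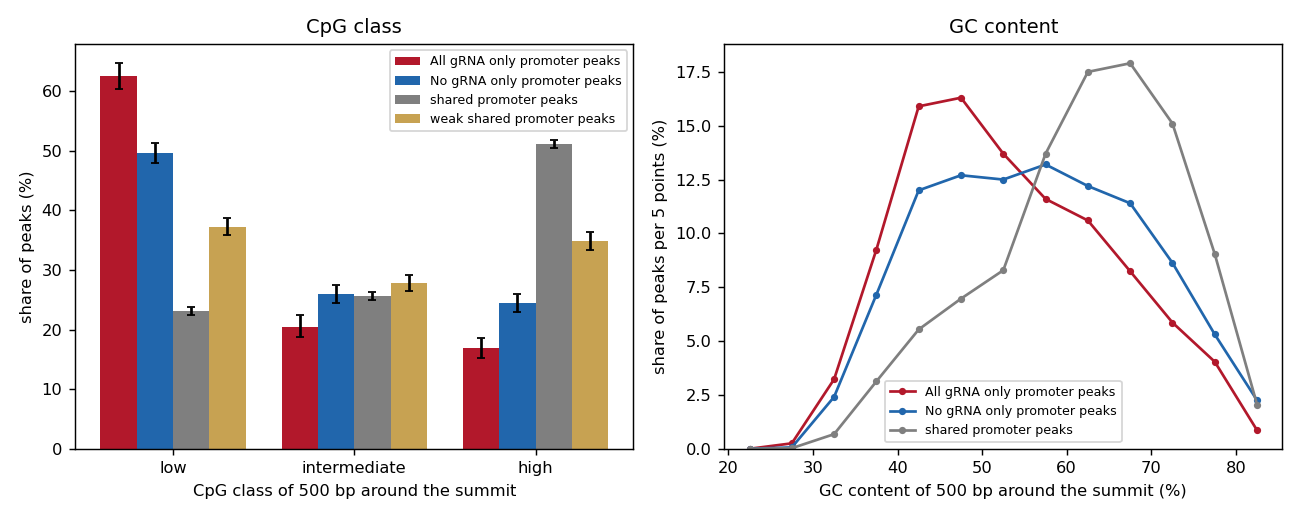
Left, share of promoter peaks (%) in each CpG class with exact binomial 95% intervals. Right, distribution of GC content (%) over 500 bp around the summit. The All gRNA only promoter peaks lean furthest to the low class (62.6%), and shared promoter peaks to the high class (51.2%).

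The nearest start belonged to a protein-coding gene for 64.5% (62.3 to 66.6) of the peaks, to a long non-coding RNA for 24.3%, to a pseudogene for 6.72% and to a small RNA for 3.79%. Among No gRNA only promoter peaks 69.2% were nearest a protein-coding gene, 21.7% a long non-coding RNA and 5.34% a pseudogene. Among shared promoter peaks 76.9% were nearest a protein-coding gene and 2.22% a pseudogene. The 75 small RNA starts comprised 29 microRNAs, 19 miscellaneous RNAs, 18 small nuclear RNAs, 7 small nucleolar RNAs and 2 ribosomal RNAs. Of peaks nearest a protein-coding gene, 20.1% (18.0 to 22.4) used the canonical start, against 32.1% of shared ones, and the difference from No gRNA only promoter peaks was −2.12 points (−4.90 to 0.744). Bidirectional promoters, with a diverging start of another gene within 1000 bp, made up 8.59% (7.39 to 9.91), against 12.5% (11.4 to 13.7) of No gRNA only and 22.6% of shared promoter peaks.

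Summits were spread more widely around starts than those of shared peaks. The median distance was 274 bp (quartiles 92 and 556), against 242 bp in No gRNA only and 90 bp in shared promoter peaks. Within 100 bp of a start lay 26.4% of All gRNA only, 29.6% of No gRNA only and 53.2% of shared summits, and more than 500 bp from it 29.2%, 28.5% and 11.2%. The summit was in an intron for 50.1%, in an exon outside untranslated regions for 20.8%, in an untranslated region for 13.6% and outside genes for 15.6%. In No gRNA only promoter peaks these shares were 50.2%, 19.1%, 15.5% and 15.1%. By chromosome, All gRNA only peaks made up from 7.88% (chromosome 19) to 13.1% (chromosome 21) of All gRNA promoter peaks. The mirror shares on these chromosomes were 12.8% and 18.6%.

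The peaks were narrow and weak; these values come from the calls that chose them and are a description only. Their width ran from 200 to 1114 bp with a median of 227 bp (quartiles 200 and 275), and 27.5% had the minimum of 200 bp. No gRNA only promoter peaks had a median of 242 bp, with 17.3% at the minimum, and shared promoter peaks 462 bp. The fold over local background ran from 2.47 to 12.8 with a median of 5.32, the −log10 q from 1.33 to 36.7 with a median of 5.16, and the pileup from 4 to 51 with a median of 9. The shared promoter peaks had medians of 10.5, 21.7 and 29. To describe the size of each peak on the scale of the deeper library, its pileup was scaled to the No gRNA depth and set against the lowest pileup that would be called there at the same background. On that scale 819 (41.4%) stood at 2 times the limit or more and 122 (6.16%) at 3 times or more. A scaled pileup holds no count from the No gRNA library, and since each peak was called in the shallower library, that 1978 of the 1979 passed the limit follows from how they were chosen. The mirror peaks, scaled down to the All gRNA depth, passed at 3047 of 3071 (99.2%). Of these, 26.1% stood at 2 times the limit or more and 3.13% at 3 times or more. Scaling raised the pileups of All gRNA only peaks and lowered those of the mirror, so the shares are not comparable.

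Peaks on either side of each limit of the rule were as follows. TTC39A, 996 bp from a start, was inside with a −log10 q of 2.75, and HAS2, 1002 bp from a start, was outside with 7.38. TRNP1 was inside with a gap of 1 bp to a No gRNA peak, and PDE8B was outside with an overlap of 2 bp. In all, 12 members lay within 10 bp of a No gRNA peak and 9 shared promoter peaks overlapped by 10 bp or less.

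A No gRNA peak was often near. The median gap to the nearest was 4745 bp (quartiles 304 and 17940), and 7.33% of the peaks had a No gRNA peak within 100 bp, 30.5% within 500 bp and 35.9% (33.8 to 38.0) within 1000 bp. The mirror shares for No gRNA only promoter peaks were 6.94%, 34.6% and 42.4% (40.6 to 44.1), and only 10.1% of All gRNA only peaks beyond 1000 bp had a No gRNA peak within 1000 bp. Of the 1276 nearest a protein-coding gene, 938 (73.5%) belonged to a gene with a No gRNA peak at 1 of its starts. For long non-coding RNAs this was 181 of 481 (37.6%). Another All gRNA peak lay within 1000 bp of 672 (34.0%).

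At the level of genes, 1327 of 19970 protein-coding genes (6.64%) had an All gRNA only peak within 1000 bp of any start, 2244 (11.2%) a No gRNA only one and 277 both. Genes with such a peak had a median of 8 annotated starts, against 5 over all protein-coding genes. At 337 of the 1327 genes no start had a No gRNA peak, and the mirror count was 494. Within 1000 bp of protein-coding starts, 8.08% of 16651 All gRNA peaks were All gRNA only and 13.2% of 17054 No gRNA peaks were No gRNA only. The gene lists below are set beside these shares. They were chosen with earlier results of these data known, so their shares are descriptions and no independent support. The study had already reported more accessible chromatin at LSR from its ATAC-seq of SUM159 cells.

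Of 44 genes of epithelial junction and adhesion, 8 had an All gRNA only promoter peak and 4 a No gRNA only one (CGN, CLDN4, ITGB4 and OCLN). All gRNA only peaks made up 9 of 38 All gRNA promoter peaks of the list (23.7%, 11.4 to 40.2). The highest −log10 q of all 1979 was at LSR, the lipolysis-stimulated lipoprotein receptor, which recruits tricellulin to tricellular junctions. Its peak at chr19:35247800-35248913 was also the widest, at 1114 bp, with the summit 196 bp upstream of a start, a −log10 q of 36.7, a fold of 11.1 and 51 read ends over it. At the No gRNA depth they would be 68.6 against a limit of 14, and the nearest No gRNA peak was 19151 bp away. GJB5, a gap junction connexin, followed at 22.8 in −log10 q and 27 in pileup (36.3 against 8 at the No gRNA depth), 457 bp downstream of its canonical start in an intron.

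The other junction genes had weaker peaks. F11R, the junctional adhesion molecule A, reached 8.48 in −log10 q and 17 in pileup, with the nearest No gRNA peak 523 bp away. LAMB3, a chain of the basement membrane protein laminin-332, had 6.98 at 846 bp upstream. A shared No gRNA peak nearest LAMB3, 1525 bp from it, had 58.4. CXADR, a tight junction receptor, had 5.84 with a No gRNA peak 169 bp away. OCLN, the tight junction protein occludin, had 2 peaks, at 4.54 and 2.75, on both sides of a No gRNA only peak that lay 54 bp from the first. CLDN7, a claudin, had 2.75 and a pileup of 5, which at the No gRNA depth would be 6.73 against a limit of 5. The No gRNA peak nearest the CLDN7 one, 5185 bp away and without an All gRNA counterpart, had 8.77 and a pileup of 11. The peak within 1000 bp of a start of DSC2, a desmosomal cadherin, was nearest to the antisense transcript DSCAS, with a −log10 q of 8.72.

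Of 29 genes of epithelial trafficking, proteases and signalling, 6 had an All gRNA only promoter peak and 2 a No gRNA only one (EPS8L1 and S100A14), and they made up 6 of 22 All gRNA promoter peaks of the list (27.3%, 10.7 to 50.2). FGFBP1, a carrier of fibroblast growth factors, reached 19.2 in −log10 q and 20 in pileup (26.9 against 6 at the No gRNA depth). AP1M2, the epithelial subunit of the AP-1 clathrin adaptor, had 11.1 and 13 (17.5 against 6), and LAD1, the basement membrane protein ladinin, 8.72 and 10 (13.5 against 5). The No gRNA peak nearest the AP1M2 one, 3419 bp away and without an All gRNA counterpart, had 11.5 and 15. PTK6, a tyrosine kinase of epithelia, had 6.38, 117 bp from a strong shared No gRNA peak. MYO5B, a myosin of apical recycling, had 4.91, and VAMP8, a vesicle SNARE, 3.83. Among 26 epithelial transcription factors, splicing factors and miR-200 genes only ELF3, an ETS factor of epithelia, had an All gRNA only peak (1 of 18). Its −log10 q was 5.31, and the only No gRNA only peak of that list, at TFAP2A (1 of 18), had 16.6. Among 33 keratin and cornified envelope genes none had an All gRNA only peak (0 of 11 promoter peaks, which allows up to 28.5%). KRT16 had a No gRNA only one (1 of 12), with a −log10 q of 8.30. Over the 4 epithelial lists 15 of 132 genes (11.4%) had an All gRNA only and 8 (6.06%) a No gRNA only promoter peak. The share of promoter peaks was 16 of 89 (18.0%, 10.6 to 27.5), and the mirror share 8 of 81 (9.88%, 4.36 to 18.5). These intervals overlap.

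**Figure D2:**
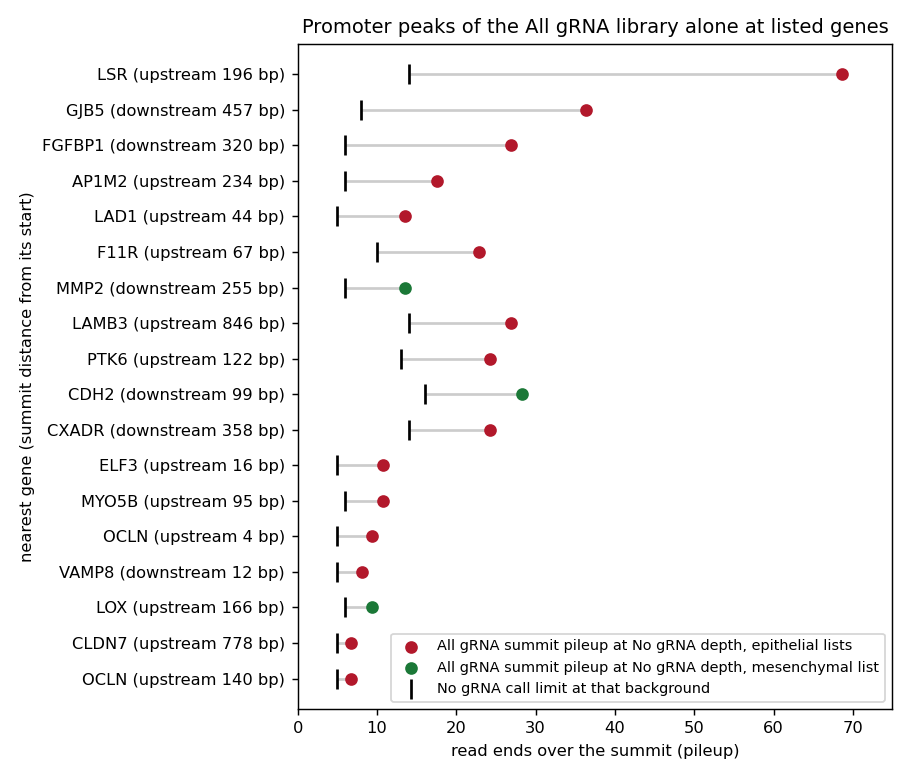
Summit pileup (read ends) of each All gRNA only promoter peak nearest a listed gene, scaled to the No gRNA depth, beside the lowest pileup that would be called in No gRNA at that background (black bar). LSR stands at 68.6 against 14, while OCLN and CLDN7 at the bottom stand at 6.73 against 5.

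Of 33 mesenchymal structural genes, 4 had an All gRNA only promoter peak (CDH2, LOX, MMP2 and COL1A1) and 6 a No gRNA only one. The CDH2 peak, at the N-cadherin gene, had a −log10 q of 5.98 and lay 69 bp from a shared No gRNA peak. LOX, which crosslinks collagen, had 3.33, with 3 No gRNA only peaks at its starts, the nearest 209 bp away. MMP2, a gelatinase, had an All gRNA only peak at chr16:55389559-55390082, with a −log10 q of 7.01. A No gRNA only peak at its canonical start, at chr16:55479179-55479650, had 9.07. The COL1A1 peak was nearest the long non-coding gene ENSG00000249406 and had the highest −log10 q of the 4, 8.72. None of the 12 transcription factors of the epithelial to mesenchymal transition had an All gRNA only peak (0 of 20, which allows up to 16.8%). A No gRNA only one lay at 4 of them (ZEB1, the gene the guides target, ZEB2, TCF4 and TWIST2, with 6 of 25 peaks). Each of these 4 also had an All gRNA peak within 1000 bp of a start, though not always of the same start. Peaks at ZEB2 and ZEB1 had 18.9 and 12.5 in −log10 q, and lay 2234 and 34264 bp from the nearest All gRNA peak. Those at TCF4 and TWIST2 had 3.03 and 2.72, and lay 367 and 123 bp from an All gRNA peak. Over both mesenchymal lists 4 of 63 All gRNA promoter peaks (6.35%, 1.76 to 15.5) were All gRNA only, and 14 of 67 No gRNA promoter peaks (20.9%, 11.9 to 32.6) No gRNA only. Both intervals included the shares of all protein-coding genes, 8.08% and 13.2%.

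At ZNF zinc finger genes 17 of 491 All gRNA promoter peaks were All gRNA only (3.46%, 2.03 to 5.49), below the 8.08% of all protein-coding genes, and 48 of 512 No gRNA ones No gRNA only (9.38%). At histone genes the shares were 9.68% (6 of 62) and 26.4% (19 of 72). SLC transporter genes had 9.57% (33 of 345) and 13.3%, and ribosomal protein genes 4.65% (4 of 86). At olfactory receptor genes, which are silent in most tissues, 9 of 14 All gRNA promoter peaks were All gRNA only (64.3%, 35.1 to 87.2). In the mirror, 3 of 8 No gRNA promoter peaks were No gRNA only (37.5%, 8.52 to 75.5). Few of these genes had any promoter peak, and 10 of 416 (2.40%) had an All gRNA only one, against 6.64% of all protein-coding genes. Of 55 KRT genes only KRT75, a hair follicle keratin, had an All gRNA only promoter peak (1 of 14 peaks, 7.14%). The mirror share was the same, with KRT16 alone (1 of 14).

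Among the 12 highest −log10 q values were 5 long non-coding RNAs. LINC02616 had 22.1, with the edge of a No gRNA peak 12 bp away that itself had 67.3, and LINC02320 had 20.9, 75 bp from a No gRNA peak with 108. ENSG00000275799 (20.9), LINC01888 (20.0) and TRAF3IP2-AS1 (18.6) lay 2742, 2906 and 5704 bp from the nearest No gRNA peak. CHTF18, part of an alternative clamp loader, had 23.0 and the highest fold, 12.8, 810 bp upstream of a start. GJC1, the connexin 45 gene, had 19.2, a Y RNA 18.6 and MYLK, the myosin light chain kinase, 18.5 with a pileup of 17, which would be 22.9 against a limit of 5. The widest after LSR were PARP14 (998 bp), ENSG00000228509 (816 bp), ENSG00000253530 (660 bp) and COQ5 (636 bp).

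Of the 337 genes without a No gRNA peak at any start, the 12 with the highest −log10 q are named, an order chosen after their values were seen. LSR, GJB5 and FGFBP1 led it, followed by DMKN, the skin protein dermokine, at 18.0. ENSG00000249590, whose peak was nearest a start of SEC14L2, had 17.7. The next were genes of varied tissues: MLIP of muscle at 14.8, TECTA of the inner ear at 14.7, LAMP3, a lysosomal membrane protein, at 14.5, ATG9B of autophagy at 14.5, PMFBP1 of sperm at 14.3, NINL of the centrosome at 14.1 and RYR2, the cardiac ryanodine receptor, at 13.8. TECTA and NINL were the members of these 12 with CAGGTG within 100 bp of the summit.

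Most of the 1859 nearest genes had a single peak (1752), 97 had 2, 7 had 3 and 3 had 4. The genes with 4 were RPS6KA2 (a ribosomal S6 kinase), MEF2C (a MADS-box factor) and CIRBP (a cold-inducible RNA-binding protein), with 13, 52 and 36 annotated starts. Their peaks lay at separate starts or side by side: at RPS6KA2 a pair at chr6:166757420-166757668 and chr6:166757737-166758061 each had a −log10 q of 6.56, and the others had 5.20 and 2.16. MEF2C values were 7.32, 6.17, 5.68 and 3.83, and CIRBP values 5.56, 5.32, 4.14 and 3.61. RARB, a retinoic acid receptor, FOXP1, a forkhead factor, LTBP4, PHF2, RIN3, CLIP4 and PCNX2 had 3 each. At PHF2 all 3 lay side by side, at chr9:93575914-93576189, chr9:93576337-93576572 and chr9:93577218-93577544, with a No gRNA peak 79 bp from the last.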

How the data were processed

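ATAC-seq was performed on 1 library of each group. Per the study's methods the authors used fastp for trimming and Bowtie2 for alignment to hg38, discarded mitochondrial, excluded-region and duplicate reads, and called peaks per library with MACS2, with no control library named. Tool versions are not given in the sources used here. The deposited lists hold 74757 (No gRNA) and 75217 (All gRNA) peaks with a fold (a ratio of summit pileup to local background, both plus 1), a −log10 p, a −log10 q and a score, all as the authors' caller wrote them. The deposited score was not used. The lists hold no library totals. Peaks were compared by overlap (checked with bedtools 2.31.1), and summits were assigned to the nearest start of GENCODE release 44. A whole-number pileup and a background were solved from the authors' fold and −log10 p for 100% of peaks (relative tolerance 0.0001), after a test on simulated data. The lowest backgrounds, 0.4844 and 0.6518, gave the depth ratio. The call limit is the lowest pileup whose −log10 p reaches the lowest in the No gRNA list, 3.53. Read ends of 1 fragment are not independent.

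Shares have exact Clopper-Pearson intervals (scipy 1.17.1), and differences Newcombe intervals. The peaks, gene lists and motifs were chosen with earlier results of these data known. Named were the 12 highest −log10 q, the 5 widest, all peaks at listed genes, genes with 3 or more peaks, and peaks next to each limit. Alternatives were thresholds on −log10 q, other definitions of promoter and of overlap, and the motif window. Guide sequences are not reported here.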

Additional observations from a re-analysis of the deposited data

How the results depend on the processing

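Of 38 values recomputed under an alternative, 23 stayed within their counting interval, spread or count limit, and 15 moved. Only the difference in CAGGTG share could change sign, and it did not. The counts of 1401 peaks with summits within 500 bp and 1345 at protein-coding starts only were among the 23. The number of All gRNA only promoter peaks was 1006 with a −log10 q of at least 5, 180 with at least 10, 1269 when a gap of up to 1000 bp counted as shared and 4496 when shared peaks had to overlap by 50% of both. With a −log10 q of at least 10 the median width was 285 bp, the protein-coding share 61.1%, the high CpG share 8.89% and the share with a No gRNA peak within 1000 bp 23.3%. With summits within 500 bp the protein-coding share was 66.8% and the high CpG share 20.3%. With protein-coding starts only, the high CpG share was 22.0% and that with a near No gRNA peak 44.2%. With the gap of 1000 bp the protein-coding share was 56.9% and the high CpG share 9.61%. In a window of 50 bp the CAGGTG share was 11.0%, as the window is smaller; the causes of the other shifts were not tested. The difference in CAGGTG share from No gRNA only promoter peaks ran from 4.35 to 7.53 points, with each interval above 0. No paired analysis was possible because there was 1 library a group. The difference in depth cannot be told apart from the guides, and with 1 library a group no difference has a replicate check.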
